A study of Arabidopsis thaliana with 76 samples.

Results

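Transcripts of 5 photoprotection genes were followed in *Arabidopsis* seedlings: ELIP1 (AT3G22840), ELIP2 (AT4G14690), OHP1 (AT5G02120), VDE1 (AT1G08550) and ZEP (AT5G67030). They were chosen by name, as the early light-induced proteins, a related one-helix protein and the enzymes of the xanthophyll cycle, from 33557 genes measured. All 5 passed the filter on low counts in each of the 3 model fits. By the labels, RNA came from pools of 25 Col-0 seedlings, which were grown in short days of 8 h light at 170 umol and 16 h dark, and 76 libraries were used. On plates at 17 °C, WT and the starch synthase mutant *ss4-1* were sampled at 8 times, which were ZT-4 and ZT0 before lights on, ZT1, ZT2, ZT4 and ZT8 in the light and ZT12 and ZT16 in the dark, with 2 libraries per genotype and time, and *pgm*, *ss3/ss4* and *ss3/ss4/pgm* were sampled at ZT0 and ZT2 with 2 libraries each. WT at constant 22 °C and 27 °C was sampled at the same times with 1 library each, where the ZT12 and ZT16 values come from columns headed ZT-12 and ZT-8, read as hours counted back from the next dawn. In liquid culture, WT seedlings at 22 °C or 27 °C were untreated, or were given ethanol as mock, 30 µM DCMU or 50 µM DBMIB at ZT-1 and sampled at ZT1, with 2 libraries per treatment and temperature. PGM makes the glucose 1-phosphate from which leaf starch is built, and the SS3 and SS4 enzymes lengthen and initiate starch chains.

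Leaves that absorb more light than they can use must dispose of the excess before it damages the photosystems. ELIP1 and ELIP2 are thylakoid proteins related to the light-harvesting proteins, which accumulate under light stress and are thought to hold pigments safely while antennae are rebuilt. OHP1 is a small member of the same family that helps to assemble the photosystem II reaction centre. In the xanthophyll cycle, VDE1 in the thylakoid lumen turns violaxanthin into zeaxanthin when light acidifies the lumen, and ZEP on the stromal side turns zeaxanthin back. Zeaxanthin promotes the loss of excess energy as heat, and ZEP also makes the violaxanthin from which abscisic acid derives.

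The deposited files placed ELIP1 on chromosome 3 at 8084447 to 8085560, ELIP2 on chromosome 4 at 8418283 to 8419263, OHP1 on chromosome 5 at 419091 to 419773, VDE1 on chromosome 1 at 2706924 to 2709531 and ZEP on chromosome 5 at 26753510 to 26757236, in TAIR10 as named in the submitters' notes. Because the levels of ELIP1 and ELIP2 parted with temperature, the 250 bases before the annotated start of each are shown here from RefSeq's TAIR10.1, for ELIP1 at chr3:8085670-8085919 on the minus strand and for ELIP2 at chr4:8417992-8418241 on the plus strand. Capitals mark the G-box CACGTG, a sequence that light-signalling bZIP and bHLH factors are known to bind.
ELIP1: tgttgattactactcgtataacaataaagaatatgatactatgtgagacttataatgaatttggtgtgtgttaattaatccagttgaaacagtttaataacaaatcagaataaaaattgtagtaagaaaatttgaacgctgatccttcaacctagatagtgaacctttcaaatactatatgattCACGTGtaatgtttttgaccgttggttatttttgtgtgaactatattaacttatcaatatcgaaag
ELIP2: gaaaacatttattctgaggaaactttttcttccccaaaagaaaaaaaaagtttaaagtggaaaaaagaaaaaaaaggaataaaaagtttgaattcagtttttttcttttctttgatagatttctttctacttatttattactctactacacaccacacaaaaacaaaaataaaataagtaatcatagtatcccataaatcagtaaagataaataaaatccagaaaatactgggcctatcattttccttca
The ELIP1 window held 1 G-box, 66 to 61 bases before the start, and the ELIP2 window held none. Positions are counted from the RefSeq start, which is 8085669 for ELIP1 and 8418242 for ELIP2. The starts in the deposited files, 8085560 and 8418283, lie inside these, and the bases between were not searched. Both strands were searched for 7 sequences, which were CACGTG, the heat shock element cores GAANNTTC and TTCNNGAA, the evening element AAAATATCT, GATAAG, the CCA1 site AAAAATCT and the ACGT core, the last of which lies inside the G-box. Among the windows of 27443 genes, 6.49% held CACGTG, 9.55% GAANNTTC, 7.68% TTCNNGAA, 2.36% AAAATATCT, 12.29% GATAAG, 6.69% AAAAATCT and 44.08% ACGT. Besides its G-box, ELIP1 had a GATAAG 17 to 12 bases before the start, and ELIP2 had none of the 7. OHP1 had a G-box 78 to 73 bases and a GAANNTTC 121 to 114 bases before its start. VDE1 had a TTCNNGAA 237 to 230 bases before its start, and ZEP had a GATAAG 81 to 76 bases before its start and 2 ACGT cores, the nearer beginning 7 bases before it. The coding sequences of ELIP1 and ELIP2, of 588 and 582 bases, were identical at 448 of 562 aligned bases, and their longest exactly shared run was 26 bases, shorter than the 100-base reads.

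Depth ranged from 3204754 to 19679912 counts per library among the 60 libraries with counts, and the lowest was *pgm* at ZT0 replicate 2. PGM was at 4.32 to 13 TPM (the transcript abundance unit that is scaled for gene length and library total) in *pgm* and *ss3/ss4/pgm* against 55.2 to 63.6 in WT, and SS3 was at 5.33 to 7.61 in *ss3/ss4* and *ss3/ss4/pgm* against 28.1 to 34.2 in WT at ZT0 and ZT2. SS4 TPM did not separate *ss4-1* from WT and so checks nothing there. In the liquid cultures, HSP70 TPM in the replicates went against each other, at 15.6 and 945 in the libraries labelled DCMU at 22 °C and at 1045 and 17.8 in those labelled DBMIB at 22 °C, so these libraries are described one by one. Whether the DCMU and DBMIB labels were crossed between replicates was not tested, and the labels were kept as given.

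At 17 °C the ELIP transcripts rose steeply after lights on in WT and lay below their ZT0 levels, in TPM, at ZT12. ELIP1 stood at 18.3 and 10.9 TPM at ZT0 in replicates 1 and 2, at 354 and 424 at ZT1, at 705 and 741 at ZT2, at 312 and 299.9 at ZT4 and at 47.8 and 75.9 at ZT8. In darkness it was at 7.33 and 7.25 TPM at ZT12, 7.19 and 6.44 at ZT16 and 20.7 and 26.5 at ZT-4. Every library from ZT1 to ZT8 lay above every library in darkness for ELIP1. For ELIP2 the levels were 75.8 and 42.1 TPM at ZT0, 420.4 and 447 at ZT1, 484 and 656 at ZT2, 288 and 323 at ZT4 and 31.4 and 46.9 at ZT8. It stood at 10.5 and 12.4 TPM at ZT12, 16.1 and 16.7 at ZT16 and 133 and 203 at ZT-4, so that both ZT-4 libraries lay above both at ZT0 and ZT8. ELIP2 thus differed from ELIP1 in the order of its times, and its ZT0 and ZT8 values overlapped.

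**Figure D1:**
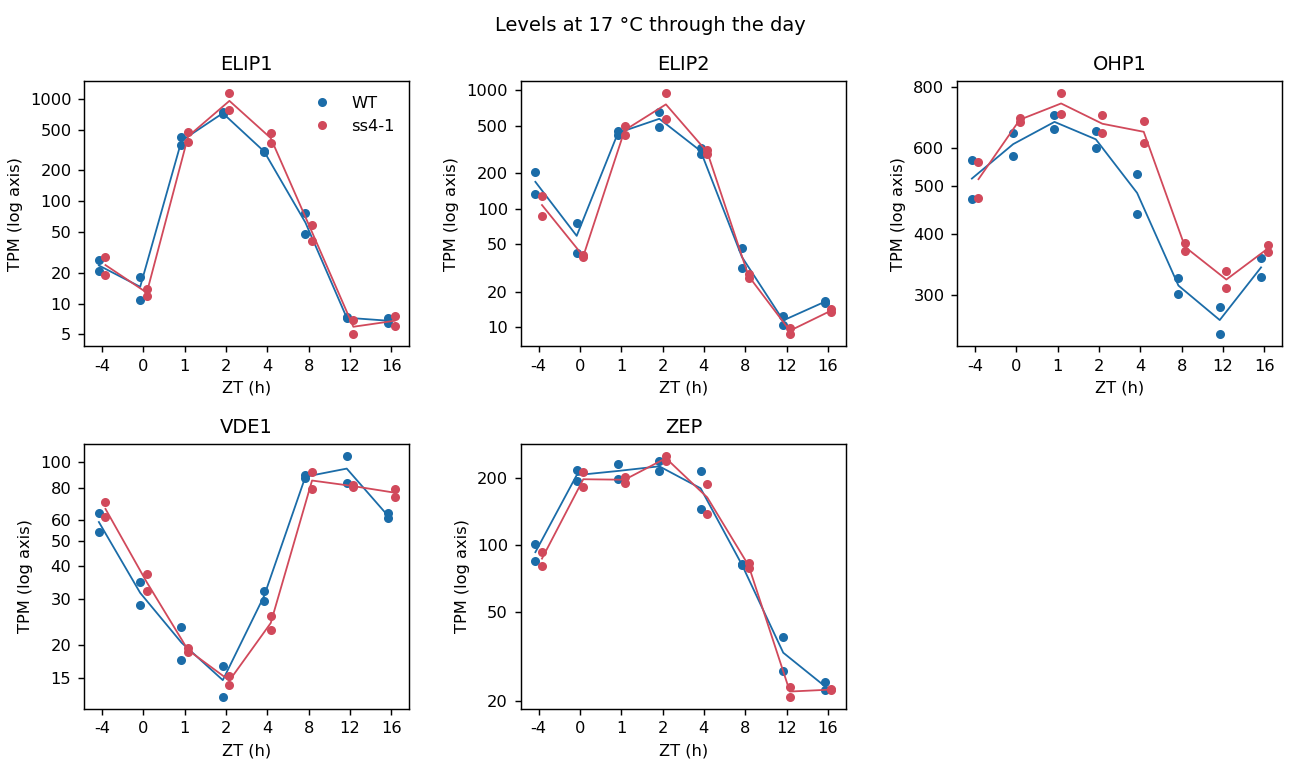
TPM on a log axis of the 5 genes in WT and *ss4-1* at 17 °C against ZT in h, with time points evenly spaced, points for single libraries and lines through group means. The ELIP1 and ELIP2 points peak at ZT2, where VDE1 is lowest, and the WT and *ss4-1* points lie close together at most times.

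Against ZT0 in WT, ELIP1 rose by 4.87 ± 0.25 on the log2 scale at ZT1 (SE, 2 libraries per time, edgeR quasi-likelihood test, adjusted p = 7.77e-13), by 5.55 ± 0.26 at ZT2 (adjusted p = 6e-14), by 4.28 ± 0.25 at ZT4 (adjusted p = 3.68e-12) and by 1.98 ± 0.25 at ZT8 (adjusted p = 7.25e-07). Its rise at ZT1 ranked 15 by size among the 20692 genes tested. The rise of ELIP2 was smaller, with 3.06 ± 0.27 at ZT1 (adjusted p = 4.28e-09), 3.29 ± 0.27 at ZT2 (adjusted p = 7.11e-10) and 2.36 ± 0.26 at ZT4 (adjusted p = 1.38e-07), and its value of -0.59 at ZT8 did not pass (adjusted p = 0.0852). At ZT12 both were lower than at ZT0, ELIP2 with -2.19 ± 0.31 (adjusted p = 5.99e-06) and ELIP1 with -0.92 ± 0.32 (adjusted p = 0.0299). The ELIP1 call at ZT12 was lost without replicate 1 of each group (-0.53, adjusted p = 0.443) and with only those 2 groups in the fit (-0.93, adjusted p = 0.139), as was its fall at ZT16 of -1.04 ± 0.32 (adjusted p = 0.0205, without replicate 1 -0.65 and adjusted p = 0.484). ELIP2 at ZT-4 was 1.48 ± 0.26 above ZT0 (adjusted p = 0.000646), and this call was lost without replicate 2 (0.75, adjusted p = 0.477), while its value at ZT8 passed without replicate 2 (-1.18, adjusted p = 0.0153).

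OHP1 varied over a narrower range through the day than the ELIP genes. Its level was 578 and 642 TPM at ZT0, 656 and 699 at ZT1, 599 and 649 at ZT2 and 531 and 438 at ZT4, and it was lowest at ZT12 with 249 and 283. Light and dark values overlapped. No OHP1 change passed at ZT1 (0.43 ± 0.16, adjusted p = 0.0651), and it fell by 0.92 ± 0.16 at ZT8 (adjusted p = 4.71e-05) and by 0.88 ± 0.16 at ZT12 (adjusted p = 0.00014). The OHP1 fall at ZT16 (-0.68, adjusted p = 0.00303) was lost without replicate 2 (-0.45, adjusted p = 0.221).

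VDE1 and ZEP moved in opposite phase. VDE1, whose product makes zeaxanthin, was at 34.8 and 28.6 TPM at ZT0, 23.4 and 17.5 at ZT1, 12.7 and 16.7 at ZT2, 32.3 and 29.4 at ZT4, 86.8 and 89.6 at ZT8 and 83.4 and 106 at ZT12. Its lowest values were thus at ZT2, when ELIP1 was highest, and its highest at the end of the light and in early night. ZEP was at 217 and 193 TPM at ZT0, 231 and 197 at ZT1, 213 and 236 at ZT2, 214 and 144 at ZT4, 80.9 and 82 at ZT8, 27.2 and 38.6 at ZT12 and 24.3 and 22.4 at ZT16. Its values from ZT0 to ZT4 overlapped, and all exceeded those from ZT8 to ZT16. VDE1 fell by 0.59 ± 0.15 at ZT1 (adjusted p = 0.00602, without replicate 2 -0.52 and adjusted p = 0.146) and by 1.09 ± 0.15 at ZT2 (adjusted p = 3.59e-06), then rose by 1.57 ± 0.14 at ZT12 (adjusted p = 2.97e-09) and by 1.01 ± 0.14 at ZT16 (adjusted p = 7.19e-06). ZEP did not pass at ZT1 (0.12, adjusted p = 0.702), and it was lower with -1.40 ± 0.17 at ZT8 (adjusted p = 2.04e-07), -2.66 ± 0.18 at ZT12 (adjusted p = 1.18e-11) and -3.12 ± 0.18 at ZT16 (adjusted p = 1.46e-12). At ZT-4, in the dark before dawn, VDE1 was at 64.1 and 54.2 TPM, with 0.88 ± 0.14 against ZT0 (edgeR, adjusted p = 0.000213). ZEP was at 101 and 84.4 TPM at ZT-4, with -1.16 ± 0.17 against ZT0 (adjusted p = 5.02e-05). The TPM ratio of VDE1 to ZEP was 0.0598 and 0.0709 at ZT2 and 3.07 and 2.75 at ZT12.

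Of the 5 genes, 3 were called against ZT0 at ZT1 (15.8% of all genes tested), 3 at ZT2 (31.8%), 2 at ZT4 (35.9%), 4 at ZT8 (43.7%), 5 at ZT12 (32.7%), 5 at ZT16 (22.8%) and 3 at ZT-4 (4.12%), where a call is an adjusted p under 0.05. Among 22 other genes of photoprotection and carotenoid synthesis, 5 rose and none fell at ZT1, and 1 rose and 10 fell at ZT8, with medians of 0.02 and -0.19 on the log2 scale beside 0.004 and 0.002 over all genes. BCH1 and BCH2, the beta-carotene hydroxylases that supply the cycle with zeaxanthin, rose by 1.35 and 1.11 at ZT1, and BCH2 fell by 6.14 at ZT12. LCNP, a lipocalin of sustained quenching, rose by 1.71 at ZT8, and PSBS, the sensor of lumen acidity in quenching, rose by 0.60 at ZT2. Across the 32 WT and *ss4-1* libraries, ELIP1 and ELIP2 had Pearson's r of 0.92, VDE1 had r of -0.82 with ELIP1 and with ZEP, and the genes nearest to each member were UGT78D2 (0.976) for ELIP1, LEA3 (0.959) for ELIP2, PGR5 (0.951) for OHP1, WCRKC1 (0.98) for VDE1 and AT5G35970 (0.987) for ZEP. These libraries share the time of day and the coefficients are descriptions over 16066 genes.

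In the 22 °C and 27 °C series, with 1 library per point and so no test, both ELIP genes also rose in the morning, from lower night levels. ELIP1 was at 1.11 TPM at ZT0, 414 at ZT1, 284 at ZT2, 62.8 at ZT4, 17.6 at ZT8 and 1.62 at ZT12 at 22 °C. At 27 °C it was at 0.321, 389.9, 199, 56, 38.7 and 0.428 TPM at these times. ELIP1 at ZT1 was therefore of similar level at both temperatures. ELIP2, in contrast, was at 3.21 TPM at ZT0, 175 at ZT1, 129 at ZT2, 22.5 at ZT4, 7.21 at ZT8 and 2 at ZT12 at 22 °C, and at 0.439, 59.3, 23.8, 8.6, 9.31 and 1.31 TPM at 27 °C. The 2 series peaked at ZT1 and the 17 °C series at ZT2, for both ELIP genes.

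**Figure D2:**
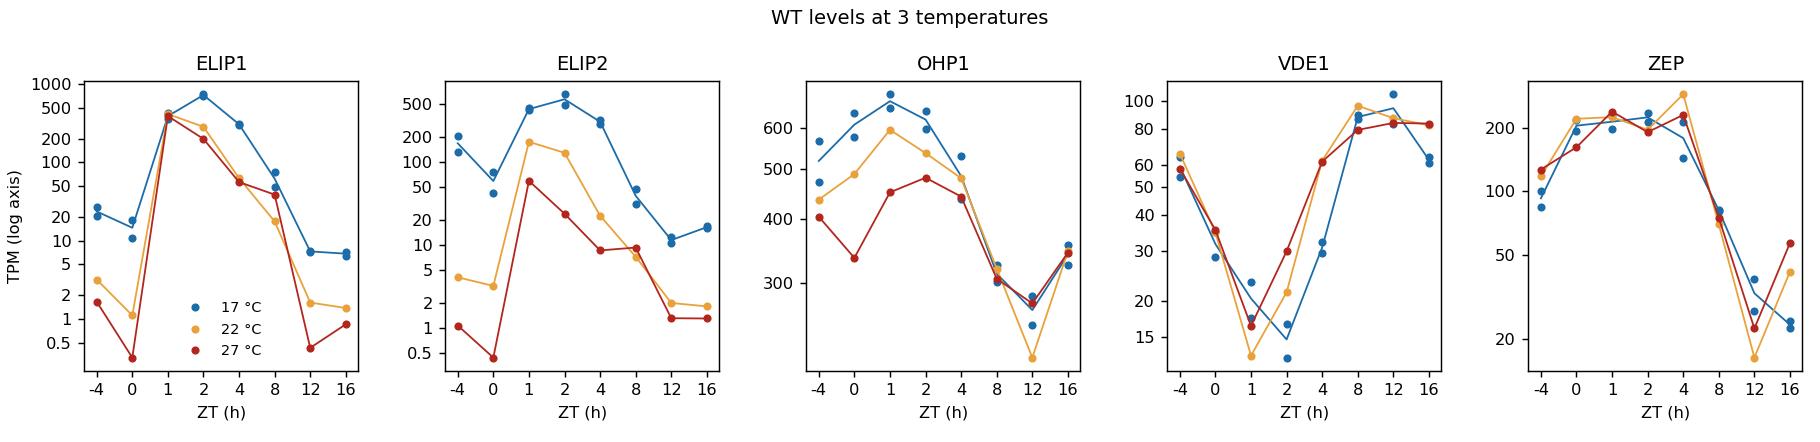
TPM on a log axis of the 5 genes in WT at 17, 22 and 27 °C against ZT in h, with time points evenly spaced, points for single libraries and lines through their means. ELIP2 is lower at 22 °C and 27 °C than at 17 °C at every time, whereas the ELIP1 points meet at ZT1.

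On the log2 scale of TPM plus 1, the morning difference of ELIP1, ZT1 minus ZT0, was 7.62 at 22 °C and 8.21 at 27 °C, and that of ELIP2 was 5.39 at both. The added 1 exceeds the ZT0 values at 27 °C, 0.321 TPM for ELIP1 and 0.439 for ELIP2. It lowers these differences, and the equal values of ELIP2 depend on it. VDE1 was lower, by -1.37 and -1.07, and the values of OHP1 were 0.29 and 0.42 and of ZEP 0.03 and 0.56. These were changes of at least 2-fold for 3 of 5 genes at 22 °C (20.8% of all genes) and for 3 of 5 at 27 °C (24%). Between 27 °C and 22 °C at ZT1, 1 of 5 differed by at least 2-fold (3.4%), ELIP2 with -1.55, while ELIP1 had -0.09, OHP1 -0.40, VDE1 0.33 and ZEP 0.09, beside a median of 0.13 over all genes. At ZT2 the values were -0.52 for ELIP1 and -2.39 for ELIP2. VDE1 was lowest at ZT1 in these series, with 12.9 TPM at 22 °C and 16.4 at 27 °C, and highest at ZT8 with 96.6 at 22 °C and at ZT12 with 84.1 at 27 °C, so its morning trough came earlier than the ZT2 trough at 17 °C. ZEP was at 221, 225 and 196 TPM at ZT0, ZT1 and ZT2 at 22 °C and at 162, 239 and 191 at 27 °C, and fell to 16.3 and 22.4 at ZT12. OHP1 ranged from 215 to 596 TPM at 22 °C and from 274 to 481 at 27 °C. The 17 °C table and the 22 °C and 27 °C table were normalized separately and their depth in the latter is unknown, so levels across them are a description.

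The balance of the ELIP genes shifted with temperature. The TPM ratio of ELIP1 to ELIP2 in WT at ZT1 was 0.843 and 0.95 at 17 °C, 2.36 at 22 °C and 6.58 at 27 °C, and at ZT2 it was 1.46 and 1.13, 2.21 and 8.35. At ZT0 it was 0.241 and 0.258, 0.347 and 0.73. The order held at ZT-4, ZT4 and ZT8 too, but not at ZT12, with 0.7 and 0.585, 0.808 and 0.327, nor at ZT16, with 0.446 and 0.386, 0.758 and 0.657. The dark ratios at 22 °C and 27 °C rest on very low levels in single libraries. At 27 °C they were 0.321 over 0.439 TPM at ZT0 and 0.428 over 1.31 at ZT12. In liquid culture at ZT1 the ratio was 0.635 and 0.733 in untreated and 0.48 and 0.556 in mock seedlings at 22 °C, and 2.17 and 2.84 in untreated and 1.75 and 2.25 in mock seedlings at 27 °C. All 4 libraries at 27 °C lay above all 4 at 22 °C. The log2 ratio differed by 1.90 (1.15 ± 0.28 at 27 °C against -0.75 ± 0.26 at 22 °C, SD, n = 4 each, exact permutation test, two-sided, p = 0.0286, the smallest it can give, adjusted p = 0.05 over 7 quantities). This test was chosen after the values were seen and treats untreated and mock libraries alike. Its adjusted p of 0.05 is not under the threshold. In the libraries given inhibitors the ratio was 0.49 to 0.542 at 22 °C and 1.62 to 2.81 at 27 °C.

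**Figure D3:**
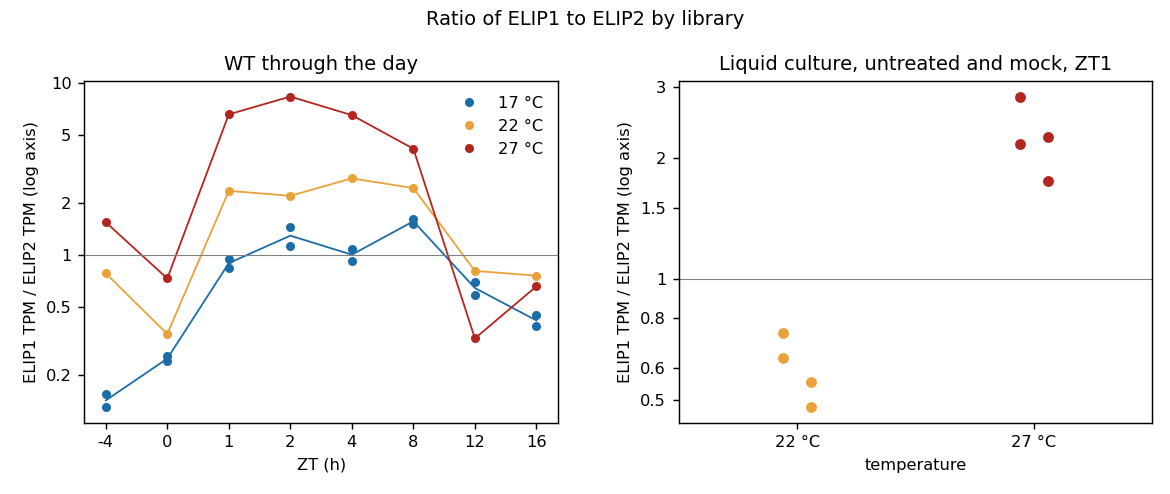
Ratio of ELIP1 TPM to ELIP2 TPM on a log axis by library, against ZT in h in WT at 17, 22 and 27 °C on the left and by temperature in untreated (left of each pair) and mock (right) liquid cultures at ZT1 on the right, with lines through means and a grey line at equality. The liquid cultures at 27 °C lie between 1.75 and 2.84 and those at 22 °C between 0.48 and 0.733.

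Both ELIP genes contributed to that ratio in liquid culture. ELIP1 was at 139 and 212 TPM in untreated and 93.8 and 149.9 in mock seedlings at 22 °C, and at 369.7 and 369 in untreated and 282 and 328 in mock seedlings at 27 °C. ELIP2 was at 219 and 289 in untreated and 195 and 269.5 in mock seedlings at 22 °C, and at 170.1 and 130.1 and 161 and 146 at 27 °C. Neither gene's values overlapped between temperatures, with log2 differences of 1.23 for ELIP1 and -0.67 for ELIP2 (exact permutation tests, two-sided, p = 0.0286 and adjusted p = 0.05 for each, n = 4 per temperature). OHP1 was lower at 27 °C, at 368 to 410.1 TPM against 436 to 539 (-0.29, exact permutation p = 0.0286, adjusted p = 0.05). The tests of ELIP1, ELIP2 and OHP1 were also chosen after the values were seen, and they pool untreated with mock libraries. Without overlap the exact permutation p is fixed at its smallest value, so it only restates the separation. An adjusted p of 0.05 is not under the threshold. VDE1 overlapped, at 34.6 to 41.7 against 33.2 to 37.7 TPM (exact permutation p = 0.286), as did ZEP, at 177 to 196 against 179 to 221 TPM (exact permutation p = 0.343). The single-library WT series differed from liquid culture for ELIP1, which was there at 414 TPM at 22 °C and 389.9 at 27 °C at ZT1. Its ELIP1 to ELIP2 ratio at 22 °C, 2.36, also lay above the 0.48 to 0.733 of liquid culture.

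The edgeR test across genes called none of the 5 between untreated seedlings at 27 °C and 22 °C (0.0197% of all genes), with 0.92 ± 0.52 for ELIP1 (adjusted p = 0.775) and -0.84 ± 0.56 for ELIP2 (adjusted p = 0.871), and none at an unadjusted p under 0.05 or by DESeq2. In that fit the spread is shared with the inhibitor libraries. Without the DCMU and DBMIB libraries, a setting chosen after the data were seen, 3 of 5 were called (22.8% of all genes), with ELIP1 at 0.91 ± 0.15 (adjusted p = 0.00108), ELIP2 at -0.85 ± 0.16 (adjusted p = 0.00241) and OHP1 at -0.38 ± 0.12 (adjusted p = 0.0417). Mock against untreated seedlings had 0 of 5 called at 22 °C (0% of all genes) and 0 of 5 at 27 °C (0%), by edgeR, at an unadjusted p under 0.05 and by DESeq2, and 0 of 5 without the inhibitor libraries (0.131% and 0.0958%). Summed TPM of 4 leaf photosynthesis genes was 17379 to 22590 at 22 °C and 12189 to 14103 at 27 °C in these libraries. That of 4 root markers was 826 to 971 and 1215 to 1548, and most of it was PYK10. CASP1 was also higher at 27 °C, whereas TIP2;3 was lower, at 65.4 to 84.7 against 119 to 134 TPM in untreated seedlings. COBL9 was at 1.71 TPM or less. None of the markers was at 0, and their part in the differences was not tested. In whole seedlings, fewer cells of a type and less RNA per cell cannot be told apart.

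DCMU blocks electron transfer from photosystem II to plastoquinone, and DBMIB blocks it after plastoquinone, so that the plastoquinone pool is thought to be oxidised by one and reduced by the other. ELIP1 was at 40.1 and 113 TPM in the libraries labelled DCMU and 102 and 76.3 in those labelled DBMIB at 22 °C, and at 132 and 306 and at 246 and 132 at 27 °C. Of these 8 libraries, 5 lay below both mock libraries of their temperature and 3 between them. ELIP2 was at 74 and 215 (DCMU) and 208 and 149 (DBMIB) at 22 °C, and at 81.7 and 123 and at 114 and 47 at 27 °C, with 6 of 8 libraries below both mock libraries and 2 between. For both genes the lowest library at each temperature carried the DCMU replicate 1 or the DBMIB replicate 2 label, or for ELIP1 at 27 °C both at 132. HSP70 divided the same libraries, with 158 and 259.6 TPM there at 27 °C against 2686 and 3091 in the other replicates.

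**Figure D4:**
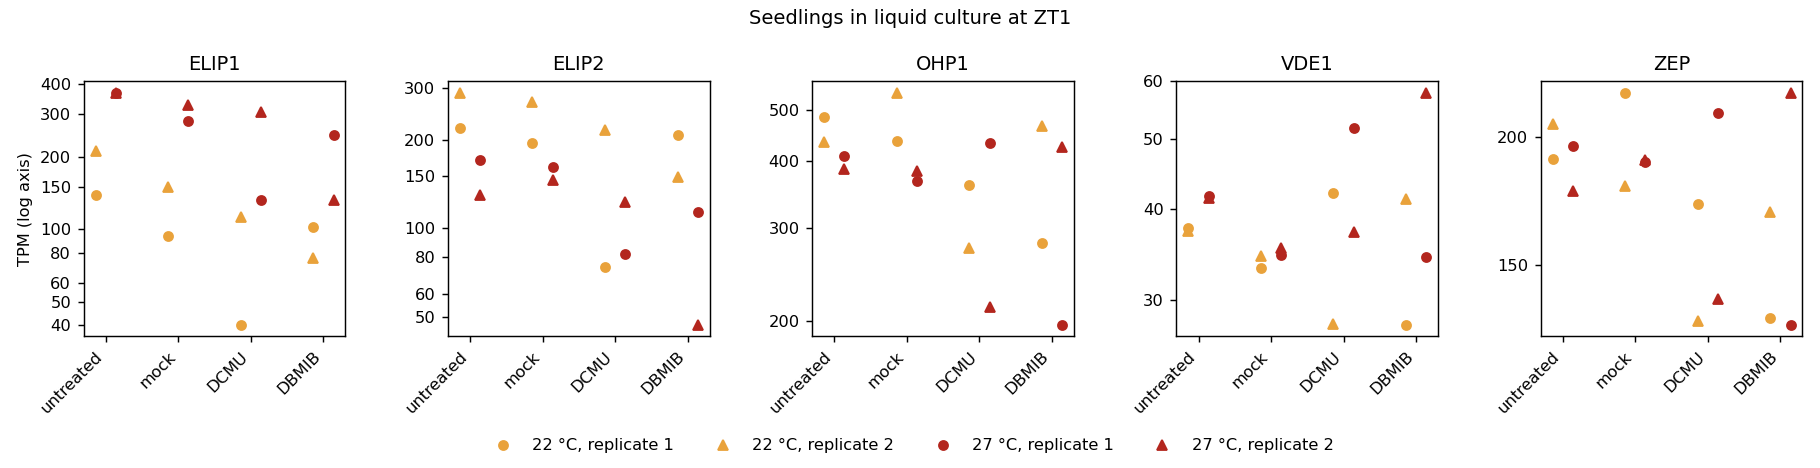
TPM on a log axis of the 5 genes by treatment in liquid culture at ZT1, with colours for temperature and symbols for replicate number. For each gene, DCMU replicate 1 and DBMIB replicate 2 lie on the same side of the other replicate of their treatment, with ELIP2 at 81.7 and 47 TPM at 27 °C and OHP1 at 434 and 425.

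OHP1 gave the opposite division. It was at 361 and 275 TPM (DCMU) and 281 and 467 (DBMIB) at 22 °C and at 434 and 213 and at 197 and 425 at 27 °C, so that DCMU replicate 1 and DBMIB replicate 2 were the higher ones. VDE1 was at 42.1 and 27.8 and at 27.7 and 41.3 TPM at 22 °C, and at 51.8 and 37.2 and at 34.4 and 57.9 at 27 °C, with the same libraries higher. ZEP, at 172 and 132 and at 133 and 169 at 22 °C and at 211 and 139 and at 131 and 221 at 27 °C, followed it. If labels were crossed, each chemical's comparison would average both treatments, so the counts for DCMU and DBMIB say little about either chemical. None of the 5 genes was called for DCMU against mock at 22 °C (3.49% of all genes) or 27 °C (6.48%), for DBMIB against mock at 22 °C (1.66%) or 27 °C (6.57%), or for DBMIB against DCMU (0% and 0%) by edgeR. DBMIB against DCMU had 0 member values at an unadjusted p under 0.05 and 0 calls by DESeq2. Of the 20 values against mock, 2 had an unadjusted p under 0.05 and 1 was called by DESeq2, VDE1 under DBMIB at 27 °C (0.62, adjusted p = 0.0492). The largest log2 differences of single libraries from the mock mean were -1.58 (ELIP1) and -1.64 (ELIP2) in DCMU replicate 1 at 22 °C and -1.69 (ELIP2) in DBMIB replicate 2 at 27 °C. None of 198 values of the 22 other genes in liquid culture was called, with 11 at an unadjusted p under 0.05.

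In *ss4-1*, the 5 genes kept their daily course. ELIP1 was at 13.8 and 11.8 TPM at ZT0, 382 and 477 at ZT1, 772 and 1136 at ZT2, 368 and 459 at ZT4 and 5.05 and 6.85 at ZT12, and ELIP2 at 38.8 and 40.7, 420.4 and 492, 569.8 and 938, 289.8 and 309, and 9.96 and 8.79. At ZT2 both ELIP1 libraries exceeded those of WT, but the difference of 0.56 ± 0.20 did not pass (edgeR, adjusted p = 0.372). ELIP2 overlapped WT there, with 0.53 ± 0.23 (adjusted p = 0.62). At ZT4 both ELIP1 libraries also exceeded those of WT, with a difference of 0.67 ± 0.20 (adjusted p = 0.0498). OHP1 at ZT4, at 613 and 680 TPM, exceeded WT by 0.65 ± 0.16 (adjusted p = 0.0212). Both calls were lost without either replicate (ELIP1 0.71 and 0.62, adjusted p = 0.138 and 0.633, and OHP1 0.72 and 0.60, adjusted p = 0.0674 and 0.586), and that of ELIP1 also with library totals in place of TMM scaling (0.57, adjusted p = 0.0782). These 2 of 5 at ZT4 (5.42% of all genes) were the only calls, with 0 of 5 at ZT-4 (0.0483%), ZT0 (0.029%), ZT1 (0.0532%), ZT2 (0.532%), ZT8 (0.00967%), ZT12 (2.99%) and ZT16 (0.0193%). Over the 40 values, 8 had an unadjusted p under 0.05, and DESeq2 called 2. Among the 22 other genes, SEP1, a light-stress protein of the ELIP family (0.73), LUT1, a carotenoid hydroxylase (0.52), and ROQH1, which relaxes sustained quenching (0.48), were higher in *ss4-1* at ZT4 and none was called at the other times.

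In the mutants *ss3/ss4*, *pgm* and *ss3/ss4/pgm*, VDE1 transcripts were higher than in WT at both times, and ELIP2 and OHP1 differed from WT in some genotypes and times. ELIP2 at ZT0 was at 62.8 and 57.5 TPM in *ss3/ss4*, 19.3 and 18.1 in *pgm* and 17.3 and 18.2 in *ss3/ss4/pgm*, against 75.8 and 42.1 in WT. At ZT2 it was at 1129 and 1175, 655 and 662, and 567 and 548 TPM, against 484 and 656. The genotypes with the *pgm* mutation thus began the day with lower ELIP2 than WT and than *ss3/ss4*, and *ss3/ss4* was above all the others at ZT2. VDE1 at ZT0 was at 67.7 and 67 TPM in *ss3/ss4*, 80.9 and 71.3 in *pgm* and 85.1 and 81.4 in *ss3/ss4/pgm*, against 34.8 and 28.6 in WT, and at ZT2 at 39.2 and 30.9, 17.4 and 20.2, and 17.1 and 18.7, against 12.7 and 16.7. All libraries of these mutants exceeded WT for VDE1 at both times. The WT libraries were those of the *ss4-1* time course. Against them at ZT0, *ss4-1* had a VDE1 difference of 0.24 on the log2 scale (edgeR, adjusted p = 0.75). Whether the other mutants were grown or prepared as a set apart from WT was not tested. A difference common to these mutants is therefore one from these WT libraries, and the part of genotype in it was not tested.

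**Figure D5:**
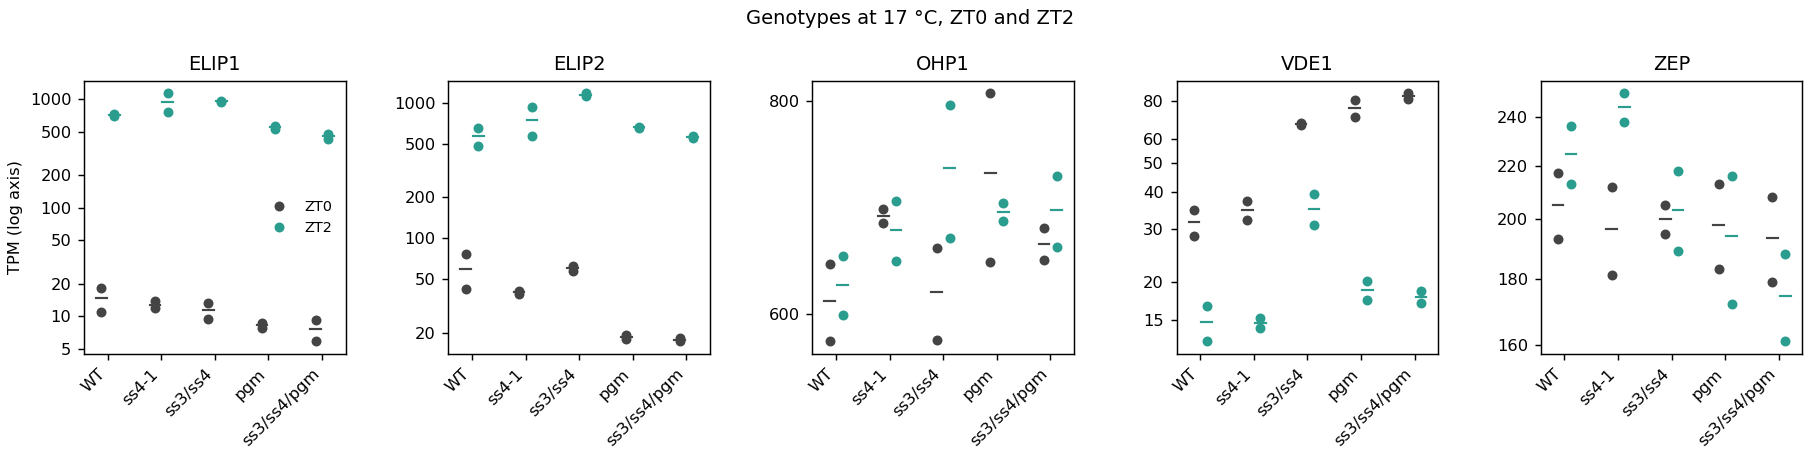
TPM on a log axis of the 5 genes in 5 genotypes at ZT0 and ZT2 at 17 °C, with points for single libraries and bars for their means; the axes differ between genes and do not start at 0. VDE1 at ZT0 is at 67 TPM or above in the last 3 genotypes and at 37.3 or below in WT and *ss4-1*.

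At ZT0 VDE1 was higher than in WT by 1.39 ± 0.11 on the log2 scale in *ss3/ss4* (adjusted p = 5.37e-09), 1.72 ± 0.11 in *pgm* (adjusted p = 4.72e-10) and 1.77 ± 0.11 in *ss3/ss4/pgm* (adjusted p = 1.68e-10). ELIP2 was lower in *pgm* (-1.03 ± 0.25, adjusted p = 0.00158) and *ss3/ss4/pgm* (-1.34 ± 0.22, adjusted p = 3.39e-05), and its value in *ss3/ss4* did not pass (0.34, adjusted p = 0.142). ELIP1, at 7.81 and 8.69 TPM in *pgm*, 13.3 and 9.39 in *ss3/ss4* and 9.3 and 5.86 in *ss3/ss4/pgm*, did not pass at ZT0 in any of them (-0.41, adjusted p = 0.286 in *pgm*, -0.57, adjusted p = 0.0694 in *ss3/ss4/pgm*). OHP1 was higher in *pgm* by 1.04 ± 0.18 (adjusted p = 9.75e-05) and in *ss3/ss4/pgm* by 0.62 ± 0.18 (adjusted p = 0.00627). The size of the OHP1 difference depended on scaling, and with library totals it was 0.58 in *pgm* (edgeR, adjusted p = 0.00421). In TPM, OHP1 at ZT0 was at 643 and 808 in *pgm* and 645 and 674 in *ss3/ss4/pgm*, close to the 578 and 642 of WT. ZEP was called in all 3 with 0.27, 0.40 and 0.28 in *ss3/ss4*, *pgm* and *ss3/ss4/pgm*. The calls of ELIP2 in *pgm* (-0.51, adjusted p = 0.213) and of OHP1 in *ss3/ss4/pgm* (0.51, adjusted p = 0.139) were lost without replicate 1, and those of ZEP without replicate 2 (0.15, 0.39 and 0.16, adjusted p = 0.45, 0.0631 and 0.442) and, in *pgm*, also without replicate 1 (0.40, adjusted p = 0.0718). With library totals in place of TMM scaling the ZEP values turned to -0.0105, -0.0497 and -0.0577, so no direction is given for ZEP.

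At ZT2 ELIP2 was higher in *ss3/ss4* by 1.12 ± 0.17 (adjusted p = 1.74e-05) and ELIP1, at 977 and 955 TPM, by 0.55 ± 0.15 (adjusted p = 0.00456, without replicate 2 0.51 and adjusted p = 0.0525). In *pgm*, ELIP2 was 0.49 ± 0.17 higher (adjusted p = 0.0243), a call lost without replicate 1 (0.20, adjusted p = 0.576). ELIP1 did not pass at ZT2 in *pgm*, at 570.2 and 534 TPM, or in *ss3/ss4/pgm*, at 484 and 429.8 (-0.33, adjusted p = 0.0912). VDE1 stayed higher by 1.28 ± 0.12 in *ss3/ss4* (adjusted p = 8.25e-08), 0.58 ± 0.13 in *pgm* (adjusted p = 0.0015) and 0.60 ± 0.13 in *ss3/ss4/pgm* (adjusted p = 0.00124), the last 2 not without replicate 1 (0.49 and 0.47, adjusted p = 0.0525 and 0.0823). OHP1 was higher in *pgm* (0.64, adjusted p = 0.00837) and *ss3/ss4/pgm* (0.63, adjusted p = 0.0093), and these calls were lost without replicate 1 in *pgm* (0.53, adjusted p = 0.175) and without replicate 2 in *pgm* and *ss3/ss4/pgm* (0.81 and 0.51, adjusted p = 0.0502 and 0.173). In TPM, OHP1 at ZT2 was at 679.9 and 697 in *pgm* and 657 and 723 in *ss3/ss4/pgm*, above the 599 and 649 of WT without overlap.

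The counts of members called were 2 of 5 in *ss3/ss4* at ZT0 (58.5% of all genes) and 3 at ZT2 (54%), 4 in *pgm* at ZT0 (57%) and 3 at ZT2 (40.4%), and 4 in *ss3/ss4/pgm* at ZT0 (61.3%) and 2 at ZT2 (41.3%). With backgrounds of this size they are not a result about the members, and all comparisons share the WT libraries of ZT0 or ZT2. Against the same WT libraries, *ss4-1* in its own fit had 0.029% of all genes called at ZT0 and 0.532% at ZT2. Scaling matters here. With library totals the median log2 difference of all genes from WT was -0.262 at ZT0 and -0.002 at ZT2 in *ss3/ss4*, -0.506 and -0.154 in *pgm* and -0.378 and -0.181 in *ss3/ss4/pgm*. With TMM these medians were 0.008 and -0.004, -0.071 and -0.001, and -0.038 and -0.008. TPM is also scaled to a library total, but for OHP1 it differed less from WT than the counts did. At ZT2 mean OHP1 was 688 TPM in *pgm* and 624 in WT, beside a log2 difference of 0.485 with library totals. With library totals ELIP1 was called lower in *pgm* (-0.84, adjusted p = 0.0178) and *ss3/ss4/pgm* (-0.92, adjusted p = 0.00335) at ZT0 and in *ss3/ss4/pgm* at ZT2 (-0.50, adjusted p = 0.00997). With that scaling ELIP2 in *pgm* at ZT2 (0.33, adjusted p = 0.118) and OHP1 in *ss3/ss4/pgm* at ZT0 (0.27, adjusted p = 0.146) were not called. OHP1 in *ss3/ss4* at ZT2, at 665 and 796 TPM, did not pass with TMM (0.43 ± 0.18, adjusted p = 0.0544) and passed with library totals (0.42, adjusted p = 0.0377). Summed TPM of the 4 root markers was 1361 to 1434 in WT at ZT0 and 612 to 951 in the 3 mutants, and 1182 to 1205 and 507 to 908 at ZT2. PYK10 made up most of these sums, and CASP1 and COBL9 were also lower in the 3 mutants at ZT0. TIP2;3 at ZT0 was instead higher in *pgm* (21.4 to 24.8) and *ss3/ss4/pgm* (24.3 to 37.8) than in WT (7.57 to 12.4). At ZT2 COBL9 was lower in the 3 mutants. CASP1 at ZT2 was at 28.8 to 30.1 TPM in *pgm*, 22.4 to 31.5 in *ss3/ss4* and 21.9 to 27.1 in *ss3/ss4/pgm*, against 26.8 to 27.8 in WT. TIP2;3 at ZT2 was again higher in *pgm* (6.32 to 6.36) and *ss3/ss4/pgm* (6.71 to 8.2) than in WT (2.17 to 4.57). Summed TPM of the 4 leaf genes was 21416 to 21472 and 16305 to 34064 at ZT0. None of the markers was at 0, and their part was not tested.

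*ss3/ss4* and *ss3/ss4/pgm*, which differ by the *pgm* mutation, were compared directly. ELIP2 was higher in *ss3/ss4* by 1.68 ± 0.22 at ZT0 (adjusted p = 4.22e-05) and 0.82 ± 0.17 at ZT2 (adjusted p = 0.00127), and ELIP1 was higher by 0.87 ± 0.15 at ZT2 (adjusted p = 0.000321). VDE1 was lower in *ss3/ss4* at ZT0 (-0.38 ± 0.11, adjusted p = 0.0159) and higher at ZT2 (0.68 ± 0.12, adjusted p = 0.000432). That made 2 of 5 called at ZT0 (18.4% of all genes) and 3 of 5 at ZT2 (25.9%). The VDE1 call at ZT0 was lost without either replicate (-0.34 and -0.43, adjusted p = 0.208 and 0.0774) and with library totals (-0.32, adjusted p = 0.105), VDE1 at ZT2 without replicate 1 (0.52, adjusted p = 0.0821) and ELIP2 at ZT2 without replicate 2 (0.64, adjusted p = 0.0736).

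The change of each mutant effect from ZT0 to ZT2 was tested as an interaction. For ELIP2 the effect was higher at ZT2 by 0.78 ± 0.26 in *ss3/ss4* (adjusted p = 0.0348), 1.52 ± 0.30 in *pgm* (adjusted p = 0.000752) and 1.63 ± 0.28 in *ss3/ss4/pgm* (adjusted p = 0.000166), of which the first and second were lost without replicate 1 (0.36 and 0.71, adjusted p = 0.347 and 0.175). For VDE1 the effect was lower at ZT2 in *pgm* (-1.14 ± 0.17, adjusted p = 6.38e-05) and *ss3/ss4/pgm* (-1.17 ± 0.17, adjusted p = 3.34e-05). The members called were 0 of 5 for *ss4-1* (0.121% of all genes), 1 for *ss3/ss4* (22.2%), 2 for *pgm* (31.2%) and 2 for *ss3/ss4/pgm* (33.5%). The count for *ss3/ss4* depended on scaling. ELIP1 there had 0.64 with TMM (edgeR, adjusted p = 0.128) and 0.90 with library totals (adjusted p = 0.0245). With library totals VDE1 in *pgm* was -0.85 (adjusted p = 0.00394). The median over all genes was then 0.257 in *ss3/ss4*, 0.313 in *pgm* and 0.159 in *ss3/ss4/pgm*.

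Among the 22 other genes, 4 were higher and 7 lower in *ss3/ss4* at ZT0, 7 and 8 in *pgm* and 6 and 8 in *ss3/ss4/pgm*, with medians of -0.14, 0.06 and 0.04 beside 0.008, -0.071 and -0.038 over all genes. SEP2, a stress-enhanced protein of the ELIP family, was higher by 1.2, 1.29 and 1.13, and LUT2, the lycopene epsilon-cyclase that leads to lutein, was lower by -0.85, -1.27 and -1.37. BCH2 at ZT2 was higher by 0.61, 0.69 and 0.82 in the same order.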

How the data were processed

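RNA-seq of 76 *Arabidopsis* libraries was used. The authors deposited whole-number read counts per gene, not normalized, for 60 libraries and TPM, scaled by them to gene length and library total, for all 76. The submitters' notes name FastQC, Trimmomatic, TopHat, Picard and TAIR10. The labels name 2 kits and 2 sequencing centres without assigning libraries, so batches could not be examined. Sample columns left unused numbered 0, and deposited FPKM was not used.

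Counts were tested in R 4.3.3 with edgeR 4.0.16 (filterByExpr, TMM, glmQLFit, glmQLFTest), with p-values adjusted by Benjamini-Hochberg over all genes and a threshold of 0.05. The fits were WT and *ss4-1* (32 libraries, 20692 genes), the other starch mutants with WT at ZT0 and ZT2 (16, 20130) and liquid culture (16, 20291). The code was tested on simulated counts. At 22 °C and 27 °C log2 of TPM plus 1 was compared for genes reaching 5 TPM, without a test. Log CPM patterns were correlated for genes with mean CPM of at least 5. DESeq2 1.42.0, other scalings and filters, a replicate block and leaving out replicates were alternatives. Leaving out a replicate drops that number from both groups compared, and the lone library left in each is assumed to vary like the other groups. Nothing says that replicates came from separate cultures or plates, so p-values measure only the spread between these samples, which may be technical.

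The members, the list of 22 other genes and the tests were chosen with earlier results of these data known. Genes outside the members are named where they passed the test, at most 3 in each direction, and the nearest patterns are the 3 highest correlations, of which 1 is given. Sequences and symbols came from RefSeq TAIR10.1, and 5058 of 26687 genes shared had the same bounds there as in the files, so file coordinates were not used to read sequence.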

Additional observations from a re-analysis of the deposited data

Results flagged for a closer look

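The ELIP2 difference from WT changed between ZT0 and ZT2 in 3 starch mutants, by 0.78 in *ss3/ss4*, 1.52 in *pgm* and 1.63 in *ss3/ss4/pgm* on the log2 scale (edgeR interaction test), with the mutants relatively higher after 2 h of light. The VDE1 difference from WT moved the other way between the same times, by -1.14 in *pgm* and -1.17 in *ss3/ss4/pgm*. Without replicate 1, the ELIP2 values were 0.36 in *ss3/ss4* (adjusted p = 0.347) and 0.71 in *pgm* (adjusted p = 0.175), and both calls were lost. The values are given because the mutant's difference from WT changed with time, which held for 22.2% of all genes in *ss3/ss4*, 31.2% in *pgm* and 33.5% in *ss3/ss4/pgm*. They share the WT libraries.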

How the results depend on the processing

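With library totals in place of TMM, a setting chosen after the data were seen, ZEP at ZT0 reversed to -0.0105 in *ss3/ss4*, -0.0497 in *pgm* and -0.0577 in *ss3/ss4/pgm*, values near 0. Of the *ss4-1* values 2 were called, 6 with no filter on low counts, 1 with library totals and 0 to 1 without replicate 1 or 2. Of the *ss3/ss4* against *ss3/ss4/pgm* values 5 were called, and 3 to 3 without a replicate. The inhibitors against mock had 0 calls and 1 by DESeq2. The liquid-culture comparisons of mock and temperature had 0 calls, 3 with only the groups compared and 3 without the DCMU and DBMIB libraries. The WT time course had 25 calls and 23 to 28 under the alternatives, and the starch mutants 18 and 12 to 23. Over the member values and alternatives, interactions left out, 1386 kept their side of the threshold, of which 67, none of them called, had the other sign, while 36 lost a call, 40 gained one and 3 reversed. The lowest depth, 16 ELIP1 counts in *pgm* at ZT0 replicate 2, limits that gene there.

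Replicate numbers are only numbers in the labels, and deviations of same-numbered libraries had a median r of 0.039 over 120 pairs of groups at 17 °C. With a replicate block the calls were 26 in the WT time course, 2 in *ss4-1*, 19 in the starch mutants, 5 in *ss3/ss4* against *ss3/ss4/pgm* and 0 in liquid culture. In DCMU and DBMIB the correlation was -0.86 at 22 °C and -0.854 at 27 °C, and a crossed replicate block, added after the data were seen, gave 0 member calls.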
